A study of Mus musculus with 12 samples.

Results

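Genes of protein folding in the endoplasmic reticulum (ER) and of the unfolded protein response were followed in the pancreas of mice with cerulein-induced chronic pancreatitis. The set held 47 genes chosen by name and sorted by role: 5 stress sensors and effectors, 11 chaperones and co-chaperones, 10 oxidoreductases and isomerases, 9 genes of ER-associated degradation, and 12 of the translocon and signal peptidase. Each gene was read from the array's probe sets (groups of short probes against 1 transcript) that carry its symbol alone, and the one with the highest mean over all arrays stood for the gene. Of the 47 genes, 46 had such a probe set, and all 46 passed the filter on dim signals, among 18194 genes with a probe set and 8493 tested. The translocon subunit Sec61g was read only by a probe set that carries 2 other symbols as well, so it has no value here.

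Total RNA of whole pancreas was hybridized to 12 Affymetrix arrays, 1 for each mouse, from mice 8 weeks old. The 4 groups of 3 mice were C57BL6/NHsd (from Harlan) with chronic pancreatitis induced by cerulein, C57BL6/NHsd injected with saline, C57BL6/J (from Jackson) with the cerulein-induced disease, and C57BL6/J injected with saline, called NHsd and J here. Cerulein mimics the gut hormone cholecystokinin, which drives acinar cells to secrete digestive enzymes. The saline mice are labelled female and the cerulein mice carry no label of sex, and the cerulein dose and schedule are not given in the sources used here.

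The acinar cell of the pancreas makes more secreted protein than most cells, and nearly all of it passes through the ER. The translocon carries the growing chain into the ER, chaperones and disulfide-forming enzymes fold it, and proteins that do not fold are sent back to the cytosol for degradation. When unfolded protein builds up, the sensors Atf6, Ern1 (IRE1) and Eif2ak3 (PERK) start the unfolded protein response. Ern1 splices the mRNA of Xbp1, whose protein, like the cut form of Atf6, switches on genes of folding and degradation. Splicing of Xbp1, phosphorylation and cleavage of the sensors change no mRNA level and were not measured here.

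The best known control element of these genes is the ER stress response element (ERSE), a CCAAT box and a CCACG box 9 bases apart (CCAAT, then 9 bases of any kind, then CCACG), which binds NF-Y together with Atf6 or Xbp1. RefSeq promoters (build GRCm38.p6, 250 bases before to 50 after the start of transcription) were found for 40 of the 47 genes, and not for Atf6, Derl1, Hyou1, Manf, Sec61a1, Spcs3 and Ssr2. These letters, searched on both strands, stood in 10 of the 40 promoters (25%), against 37 of 27025 genes with a promoter of the same length (0.137%). The 10 genes were Calr, Canx, Creld2, Derl3, Dnajc3, Ero1b, Hsp90b1, Hspa5, Pdia6 and Syvn1. The following 60-base stretches, each written 5′ to 3′ on the strand of its gene with the element in capitals, show that the element occurs in genes whose signals after cerulein were higher (Hspa5, Hsp90b1, Calr, Pdia6), lower (Ero1b) and not called (Derl3, Syvn1).

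Hspa5: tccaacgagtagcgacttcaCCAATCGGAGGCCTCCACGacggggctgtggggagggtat
Hsp90b1 distal copy: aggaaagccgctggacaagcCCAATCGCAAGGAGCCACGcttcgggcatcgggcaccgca
Hsp90b1 proximal copy: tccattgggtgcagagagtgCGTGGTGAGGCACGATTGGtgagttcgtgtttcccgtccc
Calr: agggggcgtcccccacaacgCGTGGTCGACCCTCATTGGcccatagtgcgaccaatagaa
Pdia6: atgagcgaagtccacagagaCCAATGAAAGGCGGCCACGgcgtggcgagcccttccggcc
Ero1b: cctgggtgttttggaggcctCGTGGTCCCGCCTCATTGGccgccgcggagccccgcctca
Derl3: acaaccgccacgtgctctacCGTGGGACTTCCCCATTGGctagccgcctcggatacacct
Syvn1: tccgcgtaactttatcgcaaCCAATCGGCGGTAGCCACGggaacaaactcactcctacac

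The stretch of Hspa5 lies at chr2:34772005-34772064 on the plus strand, and its element starts 65 bases before the transcription start. Those of Hsp90b1 lie at chr10:86705617-86705676 and chr10:86705512-86705571 on the minus strand, and that of Calr at chr8:84847054-84847113 on the minus strand. Pdia6 (chr12:17266471-17266530), Ero1b (chr13:12565662-12565721), Derl3 (chr10:75893222-75893281) and Syvn1 (chr19:6046512-6046571) lie on the plus strand. All of these stretches end before the transcription start, in promoter sequence. In Calr, Ero1b, Derl3 and the proximal copy of Hsp90b1 the element runs on the other strand and reads CGTGG first.

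The related ERSE-II (ATTGG, 1 base of any kind, then CCACG, on either strand; no promoter of the set held both) stood in the promoters of 2 members, Herpud1 and Dnajb11 (5% of 40), against 12 of all 27025 genes (0.0444%). That of Herpud1 is shown because this gene, a standard target of the response, was lower after cerulein, and its stretch lies at chr8:94386353-94386412 on the plus strand.

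Herpud1: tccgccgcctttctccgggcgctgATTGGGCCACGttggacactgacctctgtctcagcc

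The Xbp1-binding letters TGACGTGG were found in the promoter of Txndc5 alone (193 of all genes, 0.714%), and the amino acid response element TTGCATCA in that of Herpud1 alone (279 of all genes, 1.03%). Of the 126 other ER genes described further down that had a promoter, 0 held an ERSE, 1 an ERSE-II, 8 the letters TGACGTGG and 1 the letters TTGCATCA. A match is a description of letters, and binding was not measured.

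The deposited values are log2 signals, and several measures of the arrays moved with treatment. The median signal of tested genes was 5.98 to 6.23 on the 6 cerulein and 5.46 to 5.66 on the 6 saline arrays, so changes below are as deposited unless said otherwise, and those of the 46 genes over both substrains are given again after the arrays were shifted to equal medians. RNA spiked into every sample read lower after cerulein, by 1.82 log2 for hybridization controls (7.51 ± 0.14 against 9.33 ± 0.42, SD, n = 6) and by 2.68 for poly-A controls (7.49 ± 0.58 against 10.17 ± 0.42). Both had p = 0.00216 in the exact two-sided permutation test, the smallest that 6 against 6 arrays allow, and adjusted p = 0.00433 over 4 control measures. The gap between 3′ and 5′ probe sets of Gapdh, a measure of RNA integrity and labelling, was 0.83 ± 0.13 after cerulein and 1.22 ± 0.20 in saline (exact adjusted p = 0.00866), and that of beta-actin 1.67 ± 0.12 and 1.97 ± 0.26 (exact adjusted p = 0.0455). The labels name no batch. One array stood apart: J cerulein replicate 1 correlated with its group at a mean r of 0.951 over tested genes, against 0.969 to 0.985 for the other 11. It was the lowest of the 6 cerulein arrays for 23 of the 46 genes, and results that rest on it are given without it as well.

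Cell type markers moved with treatment too. The label of pancreas was checked on acinar markers: of 23 listed, 18 had a probe set of their own, each above log2 4 on all arrays. Their summed linear signal was 590195 to 601738 in NHsd saline, 409193 to 505255 in NHsd cerulein, 600215 to 607994 in J saline and 415248 to 467883 in J cerulein mice, with 13 of 18 lower and 1 higher (17 lower with equal medians). Macrophage markers rose in 17 of 17 tested under both scalings (median 3.23 log2 as deposited), with Itgam under log2 4 on all arrays. Their summed signal was 788 to 1089 in NHsd saline, 7521 to 9220 in NHsd cerulein, 714 to 1195 in J saline and 8653 to 12538 in J cerulein mice. Fibroblast and stellate cell markers rose in 13 of 13 tested (median 2.20, and 12 with equal medians). Sums over the list were 2459 to 3224 and 3144 to 4012 in saline and 13443 to 19626 and 9509 to 24086 in cerulein mice of NHsd and J. The listed marker Des failed the filter and did not rise. It read 4.37, 3.995 and 4.26 in saline and 3.49, 3.53 and 3.53 in cerulein mice of NHsd. In J it read 3.53, 3.66 and 3.58 in saline and 3.43, 3.30 and 3.53 in cerulein mice. Of plasma cells, which also carry much ER, 5 of 11 markers other than Xbp1 (Tnfrsf17, Prdm1, Irf4, Cd79a and Cd79b) stayed under log2 4 on all arrays. The sum of the 11 was 1584 to 2392 in NHsd saline, 4258 to 8096 in NHsd cerulein, 295 to 838 in J saline and 1504 to 2090 in J cerulein mice. Of duct markers 7 of 9 and of islet markers 10 of 10 were higher, with 7 and 5 at equal medians. Of endothelial markers 3 of 5 were higher as deposited, and 0 higher and 1 lower with equal medians. Beside these counts, 59.4% of all tested genes were higher and 10% lower as deposited, and 26.6% and 36.1% with equal medians. The endothelial share as deposited was near that of all genes. Of T and NK cell markers 6 of 7 stayed under log2 4 on all arrays, and 0 of 2 tested neutrophil markers were called. In whole pancreas, fewer cells of a type and less RNA per cell cannot be told apart, and the part of these shifts in the values below was not tested.

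The first comparison asked how these genes differed between inflamed and saline pancreas over both substrains (6 arrays against 6). The largest changes among the 46 were those of single genes: Pdia4, Pdia3, Pdia5 and the translocon-associated Ssr2 rose 3.82 to 6.85-fold. The transcription factor Xbp1, the degradation genes Edem1, Edem2 and Herpud1, and the oxidoreductase genes Pdia2 and Ero1b fell. Txndc5, another oxidoreductase gene, fell on the probe set used and rose on its other probe set. As deposited, 28 of 46 genes were higher and 7 lower (limma, adjusted p below 0.05), where 59.4% of all tested genes were higher and 10% lower. With equal array medians 13 were higher and 18 lower, against 26.6% and 36.1% of all genes. The median change of the 46 was 0.51 log2 as deposited and -0.067 with equal medians, beside 0.49 and -0.095 over all genes: as a whole the set lay near the background, and its roles and single genes differed.

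The call did not depend on the scaling (as deposited, equal medians or quantile-normalized) for 13 higher genes, namely Calr, Creld2, Hsp90b1, Manf, Pdia3, Pdia4, Pdia5, Pdia6, Spcs2, Spcs3, Ssr1, Ssr2 and Ssr3, and for 7 lower ones, Edem1, Edem2, Ero1b, Herpud1, Pdia2, Txndc5 and Xbp1. For Txndc5 this holds for the probe set used alone, since the other changed by 1.18 as deposited. A further 14 genes were higher as deposited and not called with equal medians, 10 were not called as deposited and lower with equal medians, and Dnajb11 turned from higher to lower. The arrays of the 2 treatments did not overlap for 23 higher and 5 lower genes of 46, against 40% and 4.92% of all genes (with equal medians 8 and 13, against 13.9% and 23.4%). With J cerulein replicate 1 left out, 31 were higher and 7 lower as deposited, and 14 higher and 18 lower with equal medians.

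**Figure D1:**
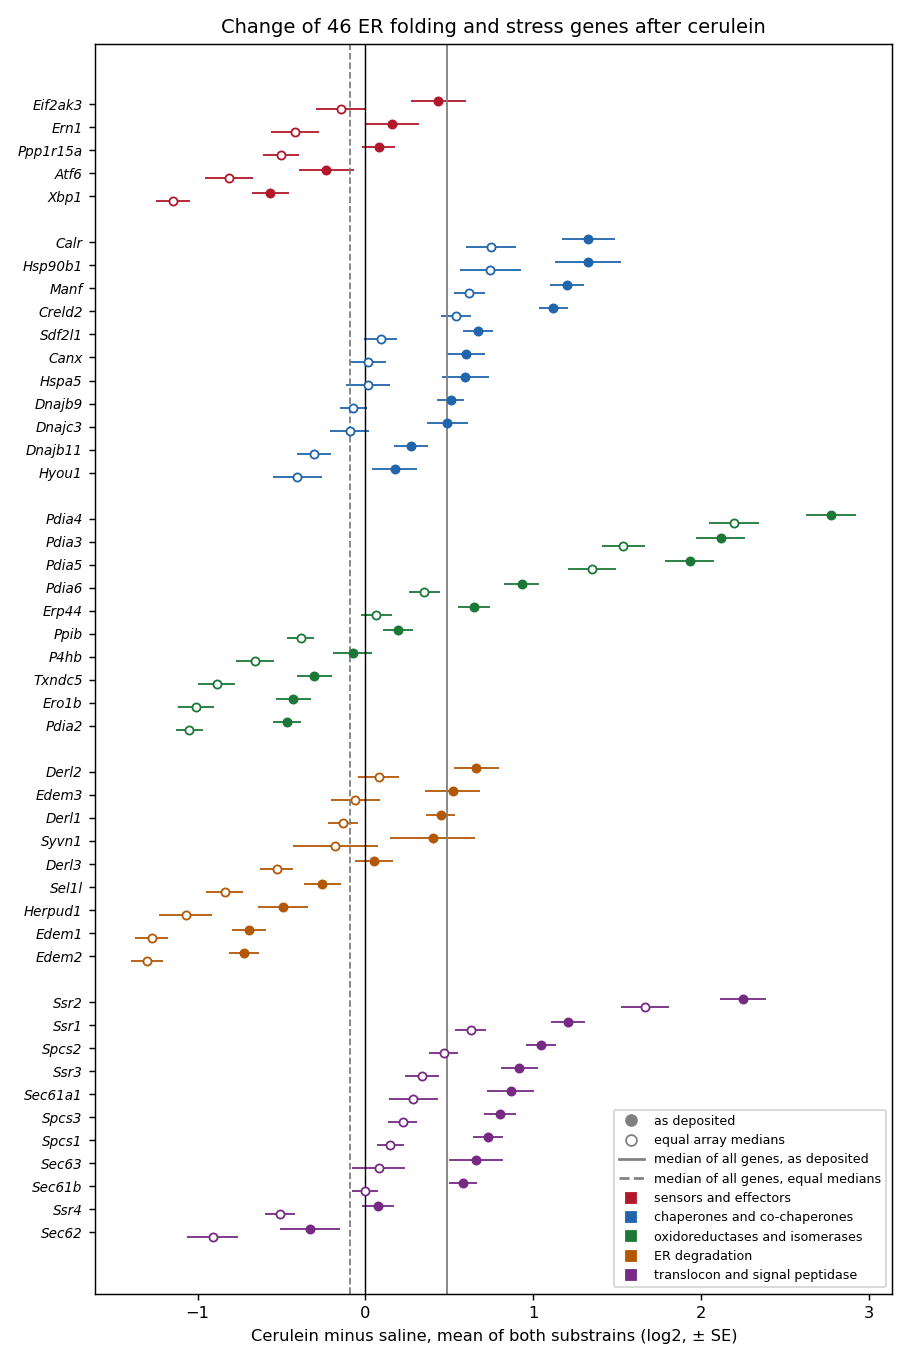
Log2 change of the 46 measured genes after cerulein (mean of both substrains, 6 arrays against 6) with its standard error, by role. Filled points are values as deposited, open points values after shifting the arrays to equal medians, and grey lines the median of all 8493 tested genes under each scaling (0.49 and -0.095). Pdia4, Ssr2, Pdia3 and Pdia5 stand farthest to the right, and Edem2, Edem1 and Xbp1 farthest to the left.

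Few sensors and effectors were higher, and Xbp1 fell. Of 5 genes, 1 was higher, 1 lower and 3 not called (median 0.078 log2), and with equal medians 0 higher, 4 lower and 1 not called (median -0.50). Both medians are the values of Ppp1r15a, a dim gene that is among the 4 lower. None of the 5 lay above the median change of all genes. Xbp1, the transcription factor that Ern1 activates, read 12.32, 12.32 and 12.33 in NHsd saline, 12.19, 11.48 and 12.09 in NHsd cerulein, 12.40, 12.56 and 12.50 in J saline and 11.77, 11.66 and 11.83 in J cerulein mice. All 6 cerulein arrays lay under all 6 saline arrays. Xbp1 changed by -0.57 (SE 0.11, adjusted p = 5.87e-04), to 0.675 of its saline level, and by -1.15 with equal medians. Its other 3 probe sets gave -0.88, -1.48 and -1.06. Atf6, the sensor that is cut in the Golgi and becomes a transcription factor, read 7.90, 7.45 and 8.16 in saline and 7.99998, 7.52 and 7.89 in cerulein mice of NHsd, and 8.15, 7.90 and 7.56 in saline and 7.09, 7.58 and 7.64 in cerulein mice of J. The groups overlapped, and the change of -0.23 (SE 0.16, adjusted p = 0.215) did not pass as deposited, against -0.81 (adjusted p = 2.71e-04) with equal medians.

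The kinase Eif2ak3, which slows translation by phosphorylating eIF2alpha, read 9.05, 8.47 and 9.12 in saline and 9.62, 9.36 and 9.51 in cerulein mice of NHsd, and 9.53, 9.13 and 8.84 in saline and 8.99, 9.65 and 9.63 in cerulein mice of J. In NHsd its cerulein arrays lay above the saline arrays, and in J the treatments overlapped through cerulein replicate 1. Eif2ak3 was called higher at 0.43 (SE 0.16, adjusted p = 0.0321), and with equal medians it was at -0.15 (adjusted p = 0.395). The call was lost without NHsd cerulein replicate 1 or 3, J cerulein replicate 2 or 3, NHsd saline replicate 2, or J saline replicate 2 or 3 (adjusted p 0.0554 to 0.0843). Ern1, the kinase and nuclease that splices Xbp1, read 6.95, 6.84 and 6.94 in NHsd saline, 7.90, 7.41 and 7.50 in NHsd cerulein, 7.47, 7.18 and 7.0004 in J saline and 6.31, 7.27 and 6.94 in J cerulein mice. It was higher on all 3 cerulein arrays of NHsd and overlapped in J, with a mean change of 0.16 (SE 0.16, adjusted p = 0.389) as deposited and -0.42 (adjusted p = 0.0209) with equal medians. Without J cerulein replicate 1, Ern1 was 0.29 higher (SE 0.12, adjusted p = 0.0498) as deposited. Ppp1r15a (GADD34), which directs the phosphatase that restores translation, was dim, at 4.41, 4.54 and 4.42 in saline and 4.81, 4.56 and 4.47 in cerulein mice of NHsd, and 4.47, 4.37 and 4.50 in saline and 4.47, 4.47 and 4.41 in cerulein mice of J. The groups overlapped, with a change of 0.078 (SE 0.096, adjusted p = 0.486), and -0.50 (adjusted p = 0.00116) with equal medians. The identical value 4.4663 stood on NHsd cerulein replicate 3, J cerulein replicates 1 and 2 and J saline replicate 1. The signal of Ppp1r15a may thus be near the floor of the scale, and its change with equal medians may be only the shift of the arrays.

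**Figure D2:**
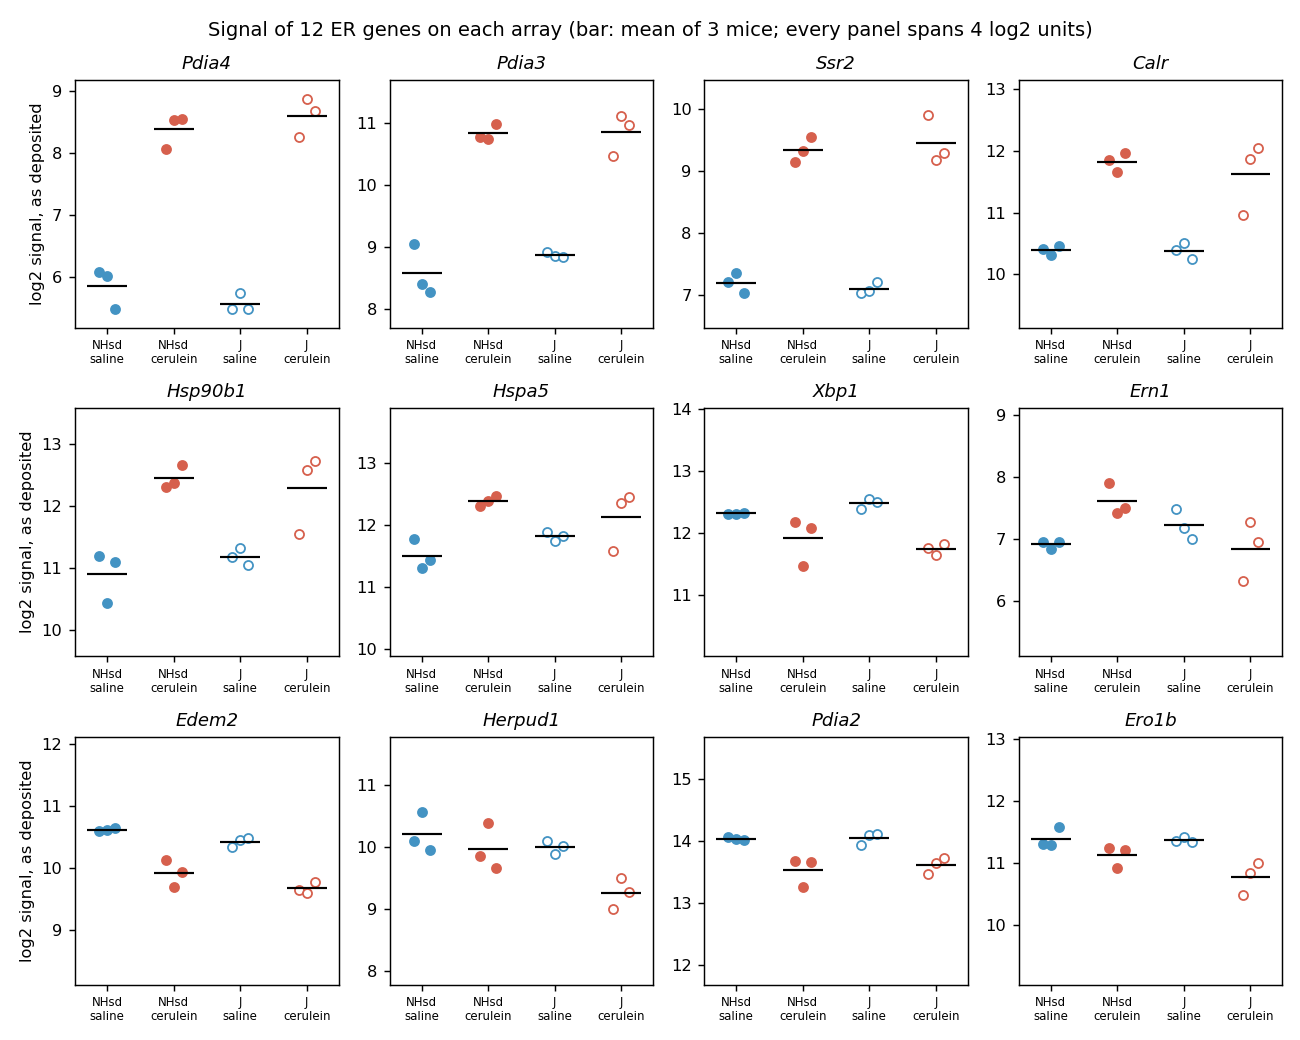
Log2 signal, as deposited, of 12 of the genes on each of the 12 arrays, by substrain and treatment; filled points are NHsd, open points J, bars the mean of 3 mice, and every panel spans 4 log2 units. Pdia4, Pdia3 and Ssr2 separate the treatments in both substrains, Xbp1 and Edem2 are lower on every cerulein array, and the lowest J cerulein point of Calr, Hsp90b1, Hspa5 and Ern1 is replicate 1.

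Chaperones were mostly higher as deposited. Of 11 genes, 10 were higher, 0 lower and 1 not called as deposited (median 0.60 log2). With equal medians 4 were higher, 2 lower and 5 not called (median 0.016); 9 of the 11 lay above the median change of all genes. The 4 that rose under every scaling were Calr, Hsp90b1, Manf and Creld2. Calr (calreticulin), a lectin chaperone that holds calcium, read 10.41, 10.32 and 10.46 in NHsd saline, 11.85, 11.65 and 11.96 in NHsd cerulein, 10.40, 10.50 and 10.25 in J saline and 10.96, 11.86 and 12.04 in J cerulein mice. All cerulein arrays lay above all saline arrays, J cerulein replicate 1 by the smallest margin. Calr rose by 1.33 (SE 0.16, adjusted p = 1.18e-05), or 2.51-fold, and by 0.75 with equal medians. Hsp90b1 (GRP94), the Hsp90 of the ER, read 11.19, 10.43 and 11.09 in saline and 12.31, 12.38 and 12.67 in cerulein mice of NHsd, and 11.19, 11.32 and 11.05 in saline and 11.55, 12.59 and 12.73 in cerulein mice of J. It too did not overlap, and rose by 1.33 (SE 0.20, adjusted p = 6.92e-05), or 2.51-fold, and by 0.74 with equal medians. Manf, a secreted ER protein that binds Hspa5, read 10.85, 10.31 and 10.62 in NHsd saline, 11.97, 11.72 and 11.93 in NHsd cerulein, 10.84, 10.60 and 10.84 in J saline and 11.99, 11.83 and 11.84 in J cerulein mice. Its groups did not overlap either, and it rose by 1.20 (SE 0.10, adjusted p = 7.32e-07) and by 0.62 with equal medians. Creld2, an ER protein with disulfide isomerase activity, rose by 1.12 (SE 0.085, adjusted p = 3.17e-07) and by 0.54 with equal medians.

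Hspa5 (BiP), the Hsp70 of the ER, which also keeps the sensors inactive, read 11.77, 11.30 and 11.44 in NHsd saline, 12.30, 12.38 and 12.47 in NHsd cerulein, 11.88, 11.74 and 11.83 in J saline and 11.58, 12.35 and 12.44 in J cerulein mice. Its cerulein arrays were higher except J cerulein replicate 1, which lay within the saline range. Hspa5 rose by 0.59 (SE 0.14, adjusted p = 0.00220), or 1.51-fold, as deposited, near the median gene, and was at 0.014 (adjusted p = 0.932, 95% interval -0.27 to 0.30) with equal medians. The lectin chaperone Canx (calnexin) was at 0.60 (SE 0.11) and 0.016, and Sdf2l1, a partner of the Hspa5 cycle, was at 0.67 (SE 0.092) and 0.090. The 4 co-chaperones of the Hspa5 cycle changed sign with the scaling. Dnajb9 (ERdj4), which recruits Hspa5 to Ern1, read 8.84, 8.70 and 8.57 in saline and 9.32, 9.29 and 9.42 in cerulein mice of NHsd, and 8.85, 8.86 and 8.78 in saline and 9.23, 9.21 and 9.18 in cerulein mice of J. It did not overlap, and was 0.51 (SE 0.082, adjusted p = 1.43e-04) higher as deposited and at -0.074 (adjusted p = 0.440) with equal medians.

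Dnajc3 (p58IPK), an ER co-chaperone known as an inhibitor of Eif2ak3, read 10.16, 9.60 and 10.18 in NHsd saline, 10.62, 10.55 and 10.82 in NHsd cerulein, 10.25, 10.50 and 10.08 in J saline and 10.41, 10.56 and 10.73 in J cerulein mice. The treatments overlapped in J, and Dnajc3 was 0.49 (SE 0.12, adjusted p = 0.00353) higher as deposited and at -0.094 with equal medians. Dnajb11 (ERdj3) read 8.10, 7.94 and 8.19 in saline and 8.54, 8.22 and 8.35 in cerulein mice of NHsd, and 7.85, 8.20 and 8.06 in saline and 8.26, 8.32 and 8.27 in cerulein mice of J. As deposited the treatments did not overlap, by a narrow margin, and this was the gene whose call turned, from 0.27 (SE 0.099, adjusted p = 0.0270) as deposited to -0.31 (adjusted p = 0.0168) with equal medians. The first call was lost without NHsd cerulein replicate 1, J cerulein replicate 2, NHsd saline replicate 2 or J saline replicate 1 (adjusted p 0.0523 to 0.0682). Hyou1 (GRP170), which exchanges the nucleotide of Hspa5, read 8.04, 8.29 and 7.98 in NHsd saline, 8.58, 8.75 and 8.49 in NHsd cerulein, 8.23, 8.42 and 8.12 in J saline and 7.73, 8.07 and 8.51 in J cerulein mice. It was higher in all 3 NHsd cerulein mice and overlapped in J, at 0.17 (SE 0.13, adjusted p = 0.261) as deposited and -0.41 (adjusted p = 0.0253) with equal medians. Without J cerulein replicate 1 it was 0.27 higher (adjusted p = 0.0456) as deposited.

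The oxidoreductases and isomerases, which form and rearrange disulfide bonds or turn prolines, split in both directions. Of 10 genes, 5 were higher, 3 lower and 2 not called as deposited (median 0.42). With equal medians 4 were higher, 5 lower and 1 not called (median -0.16). Both medians lay under the median change of all genes. Pdia4 (ERp72) had the largest change of the 46 genes under both scalings. Its signal read 6.07, 6.01 and 5.48 in NHsd saline, 8.07, 8.53 and 8.54 in NHsd cerulein, 5.48, 5.73 and 5.48 in J saline and 8.25, 8.87 and 8.67 in J cerulein mice. On 3 saline arrays it held one identical value, its lowest, so the saline level may be at the floor of the scale, and the fold change would then be a lower bound. The lowest cerulein array lay well above the highest saline array. Pdia4 rose by 2.78 (SE 0.15, adjusted p = 2.59e-08), or 6.85-fold, and by 2.20 with equal medians. Pdia3 (ERp57), which works on glycoproteins bound to Calr and Canx, read 9.05, 8.41 and 8.28 in saline and 10.77, 10.74 and 10.98 in cerulein mice of NHsd, and 8.92, 8.85 and 8.83 in saline and 10.47, 11.12 and 10.97 in cerulein mice of J. It did not overlap, and rose by 2.12 (SE 0.15, adjusted p = 1.58e-07), or 4.34-fold, and by 1.54 with equal medians. Pdia5 read 4.62, 4.24 and 3.90 in NHsd saline, 5.93, 5.91 and 6.31 in NHsd cerulein, 3.88, 4.40 and 4.06 in J saline and 5.99, 6.32 and 6.24 in J cerulein mice, with 2 saline arrays under log2 4, where the scale is near its floor. It rose by 1.93 (SE 0.15, adjusted p = 3.18e-07), or 3.82-fold, and by 1.35 with equal medians. Pdia6 (P5) rose by 0.93 (SE 0.10, adjusted p = 7.30e-06) and by 0.35 with equal medians, and Erp44, which retains Ero1 proteins and unassembled chains, by 0.65 (SE 0.095, adjusted p = 6.76e-05) as deposited, with 0.065 (adjusted p = 0.551) at equal medians.

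Other enzymes of the same kind fell. Pdia2 (PDIp), the disulfide isomerase that marks the pancreas, read 14.08, 14.03 and 14.02 in NHsd saline, 13.69, 13.26 and 13.67 in NHsd cerulein, 13.94, 14.09 and 14.12 in J saline and 13.47, 13.65 and 13.73 in J cerulein mice. All cerulein arrays lay under all saline arrays. Pdia2 changed by -0.47 (SE 0.084, adjusted p = 3.10e-04), to 0.722 of the saline level, and by -1.05 with equal medians. Ero1b, the oxidase that passes oxidizing power to these enzymes and is abundant in pancreas, read 11.30, 11.28 and 11.58 in saline and 11.24, 10.92 and 11.21 in cerulein mice of NHsd, and 11.36, 11.41 and 11.34 in saline and 10.49, 10.84 and 11.002 in cerulein mice of J. It did not overlap, and changed by -0.43 (SE 0.10, adjusted p = 0.00280) and by -1.01 with equal medians, with its other probe sets at -1.82 and -0.58. Txndc5 (ERp46) read 8.22, 8.42 and 8.38 in NHsd saline, 8.12, 7.90 and 8.10 in NHsd cerulein, 8.21, 8.05 and 8.02 in J saline and 8.02, 7.54 and 7.79 in J cerulein mice. Its groups overlapped at the edge. The change of -0.31 (SE 0.11, adjusted p = 0.0205), -0.89 with equal medians, lost its call without J cerulein replicate 2 (adjusted p = 0.0544). The other probe set of Txndc5 gave 1.18, so the direction of this gene depends on the probe set. P4hb, the main disulfide isomerase, was at -0.077 (SE 0.12, adjusted p = 0.573) as deposited and -0.66 (adjusted p = 2.24e-04) with equal medians. Ppib (cyclophilin B), a prolyl isomerase, read 12.33, 12.21 and 12.38 in saline and 12.65, 12.13 and 12.61 in cerulein mice of NHsd, and 12.19, 12.25 and 12.25 in saline and 12.46, 12.44 and 12.47 in cerulein mice of J. The groups overlapped, at 0.19 (SE 0.090, adjusted p = 0.0721) as deposited and -0.39 (adjusted p = 0.00101) with equal medians.

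Genes of ER-associated degradation had, beside the sensors, the lowest medians of the roles. Of 9 genes, 3 were higher, 3 lower and 3 not called as deposited (median 0.052). With equal medians 0 were higher, 5 lower and 4 not called (median -0.53), and 2 lay above the median change of all genes. Edem2, which starts the trimming of mannose that marks glycoproteins for disposal, read 10.59, 10.61 and 10.64 in NHsd saline, 10.13, 9.70 and 9.93 in NHsd cerulein, 10.34, 10.45 and 10.48 in J saline and 9.65, 9.59 and 9.78 in J cerulein mice. The treatments did not overlap, and Edem2 changed by -0.72 (SE 0.089, adjusted p = 1.71e-05), to 0.606 of the saline level, and by -1.30 with equal medians. Edem1, of the same family, read 11.21, 11.19 and 11.35 in saline and 10.69, 10.24 and 10.60 in cerulein mice of NHsd, and 11.19, 11.17 and 11.23 in saline and 10.82, 10.38 and 10.44 in cerulein mice of J. It did not overlap and changed by -0.69 (SE 0.10, adjusted p = 7.62e-05) and by -1.28 with equal medians, with -0.12 in its other probe set. Edem3, the third of the family, went the other way as deposited, at 9.97, 9.19 and 9.99 in NHsd saline, 10.53, 10.08 and 10.70 in NHsd cerulein, 9.98, 10.16 and 9.96 in J saline and 9.9997, 10.58 and 10.49 in J cerulein mice. The treatments overlapped, and Edem3 was 0.52 (SE 0.17, adjusted p = 0.0135) higher as deposited and at -0.061 (adjusted p = 0.733) with equal medians. Herpud1, which assembles the degradation complex and is induced by ER stress in many cells, read 10.10, 10.56 and 9.95 in saline and 9.86, 10.39 and 9.66 in cerulein mice of NHsd, and 10.10, 9.88 and 10.02 in saline and 8.99, 9.50 and 9.28 in cerulein mice of J. The treatments overlapped in NHsd and not in J, and Herpud1 changed by -0.49 (SE 0.15, adjusted p = 0.0107) and by -1.07 with equal medians.

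The derlins, candidate channels for export from the ER, gave different calls. Derl2 read 8.40, 8.07 and 8.11 in NHsd saline, 8.73, 8.52 and 8.67 in NHsd cerulein, 8.37, 8.10 and 8.04 in J saline and 9.50, 8.86 and 8.78 in J cerulein mice. It did not overlap, and rose by 0.66 (SE 0.13, adjusted p = 8.34e-04) as deposited, with 0.079 (adjusted p = 0.591) at equal medians. Derl1 read 9.01, 9.06 and 9.04 in saline and 9.66, 9.63 and 9.68 in cerulein mice of NHsd, and 9.38, 9.49 and 9.07 in saline and 9.56, 9.61 and 9.60 in cerulein mice of J. It did not overlap, and was 0.45 (SE 0.088, adjusted p = 6.29e-04) higher as deposited and at -0.13 (adjusted p = 0.209) with equal medians. Derl3, the derlin of secretory cells, read 8.53, 8.27 and 8.15 in NHsd saline, 8.74, 8.27 and 8.60 in NHsd cerulein, 8.21, 8.26 and 8.05 in J saline and 8.20, 7.97 and 8.01 in J cerulein mice. Its groups overlapped, at 0.052 (SE 0.11, adjusted p = 0.691) as deposited and -0.53 (adjusted p = 3.65e-04) with equal medians. The ubiquitin ligase Syvn1 (HRD1) read 8.19, 8.03 and 7.85 in saline and 8.86, 9.40 and 8.66 in cerulein mice of NHsd, and 8.32, 8.45 and 8.44 in saline and 7.19, 8.56 and 9.01 in cerulein mice of J. Its treatments overlapped in J, where cerulein replicate 1 was the lowest of the 12 arrays, and it was at 0.40 (SE 0.25, adjusted p = 0.175) as deposited and -0.18 (adjusted p = 0.550) with equal medians. Without J cerulein replicate 1 it was 0.67 higher (adjusted p = 0.00130) as deposited and at 0.083 (adjusted p = 0.659) with equal medians. Its partner Sel1l was at -0.26 (SE 0.11, adjusted p = 0.0524) as deposited and -0.84 (adjusted p = 2.16e-05) with equal medians.

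Genes of protein entry had the highest median of the roles. Of 11 measured genes, 9 were higher, 0 lower and 2 not called as deposited (median 0.80 log2). With equal medians 5 were higher, 2 lower and 4 not called (median 0.22), and 9 of 11 lay above the median change of all genes. The translocon-associated protein complex, which helps chains into the channel, has 4 subunits. Ssr2 read 7.21, 7.36 and 7.04 in NHsd saline, 9.14, 9.33 and 9.56 in NHsd cerulein, 7.04, 7.07 and 7.21 in J saline and 9.91, 9.18 and 9.29 in J cerulein mice. No arrays overlapped. Ssr2 rose by 2.25 (SE 0.14, adjusted p = 5.87e-08), or 4.75-fold, and by 1.67 with equal medians. Ssr1 read 9.95, 9.70 and 9.76 in saline and 11.02, 10.96 and 11.24 in cerulein mice of NHsd, and 9.94, 10.11 and 9.81 in saline and 10.86, 11.27 and 11.18 in cerulein mice of J. It did not overlap either, and rose by 1.21 (SE 0.10, adjusted p = 7.06e-07), or 2.31-fold, with 0.63 at equal medians and a rise in its other probe sets too (1.45, 0.98 and 1.31). Ssr3 rose by 0.92 (SE 0.11, adjusted p = 1.55e-05) and by 0.34 with equal medians. Ssr4 was not called as deposited, at 12.31, 12.25 and 12.37 in NHsd saline, 12.24, 11.98 and 12.45 in NHsd cerulein, 12.21, 12.21 and 12.16 in J saline and 12.68, 12.29 and 12.30 in J cerulein mice. Its groups overlapped, at 0.072 (SE 0.096, adjusted p = 0.517) as deposited and -0.51 (adjusted p = 2.75e-04) with equal medians. Its other probe set gave 0.95.

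The signal peptidase cuts the targeting peptide from the chain. Its subunit Spcs2 read 10.06, 9.68 and 9.87 in NHsd saline, 10.96, 10.71 and 10.91 in NHsd cerulein, 9.74, 9.75 and 9.84 in J saline and 10.99, 10.80 and 10.85 in J cerulein mice. It did not overlap and rose by 1.05 (SE 0.091, adjusted p = 8.65e-07) and by 0.47 with equal medians. Spcs3 rose by 0.80 (SE 0.097, adjusted p = 1.44e-05), with 0.22 (adjusted p = 0.0415) at equal medians, and Spcs1 by 0.73 (SE 0.090, adjusted p = 1.60e-05), with 0.15 (adjusted p = 0.133). Of the channel itself, Sec61a1 rose by 0.87 (SE 0.14, adjusted p = 1.60e-04) as deposited, and with equal medians it was at 0.28 (adjusted p = 0.101), or 0.42 (adjusted p = 0.00188) without J cerulein replicate 1. Sec61b read 11.98, 11.84 and 11.79 in saline and 12.45, 12.10 and 12.43 in cerulein mice of NHsd, and 11.74, 11.85 and 11.75 in saline and 12.63, 12.41 and 12.42 in cerulein mice of J. It did not overlap and rose by 0.58 (SE 0.084, adjusted p = 5.93e-05) as deposited, which equal medians brought to -0.0012 (adjusted p = 0.989). Sec63, which couples Hspa5 to the channel, rose by 0.66 (SE 0.16, adjusted p = 0.00300) as deposited, with 0.078 at equal medians, and Sec62, its partner, was at -0.33 (SE 0.18, adjusted p = 0.117) and -0.91 (adjusted p = 1.67e-04).

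Of the 12 tested genes with an ERSE or ERSE-II, 8 were higher, 2 lower and 2 not called as deposited (median 0.54). With equal medians 4 were higher, 4 lower and 4 not called. Of the 27 with no match to these letters in the promoter searched, 15 were higher, 5 lower and 7 not called (median 0.51), and 6, 12 and 9 with equal medians. The search took exact letters, so a variant or more distant element would be missed. Of all tested genes, 59.4% were higher and 10% lower as deposited, and 26.6% and 36.1% with equal medians. Both medians as deposited lay near that of all genes, and neither group was tested against all genes. The lowest change with an element was that of Herpud1 and the lowest without that of Edem2, and the highest were those of Calr (1.33) and Pdia4 (2.78). Set beside the stretches printed above, Hspa5 with 0.59, Hsp90b1 with 1.33 and Ero1b with -0.43 carry the same letters.

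Of the 46 genes, 28 had more than 1 probe set above the filter. The direction was shared by all probe sets in 23 of them and not in 5, Ern1, Dnajc3, Txndc5, Sec62 and Sec63. The widest range was that of Txndc5, from -0.31 to 1.18, followed by Sel1l, from -1.46 to -0.024, and Ero1b, from -1.82 to -0.43. Pdia4, Pdia3 and Pdia5 were read by 1 such probe set each, and Ssr2 as well.

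**Figure D3:**
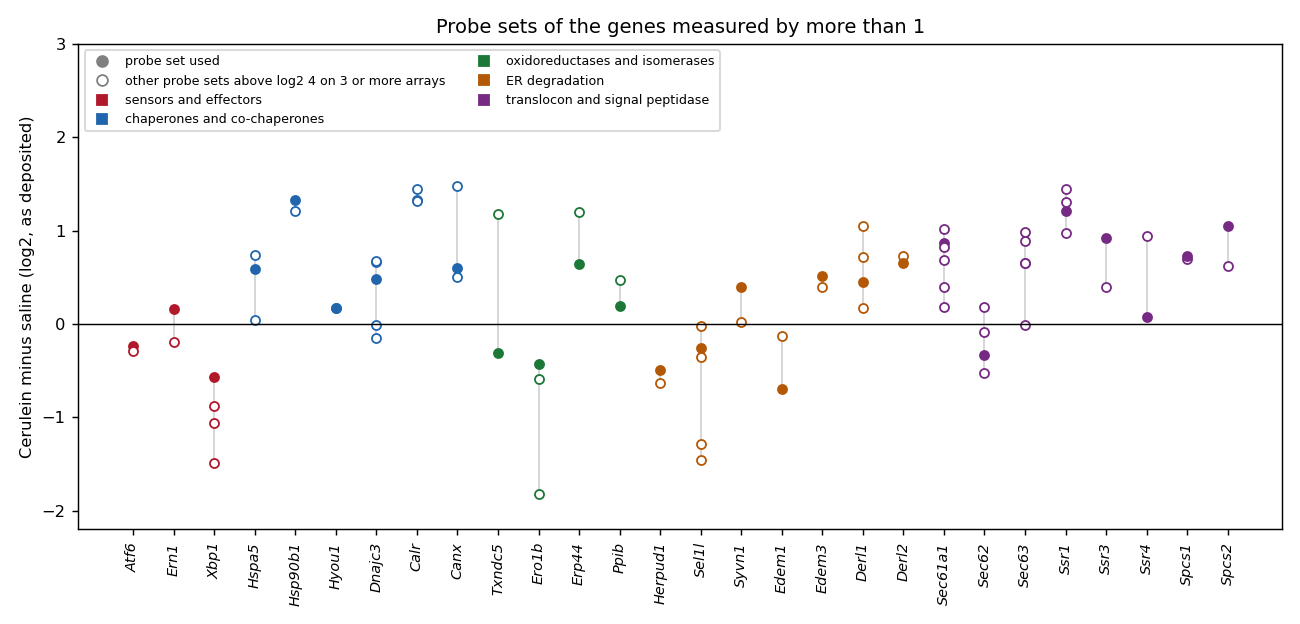
Cerulein minus saline (log2, as deposited, mean of both substrains) for each probe set above the filter, for the 28 genes with more than 1. Filled points mark the probe set that stands for the gene. All probe sets of Xbp1 and Ero1b lie below 0, all of Ssr1 and Calr above, and those of Txndc5 on both sides.

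The next comparison asked whether the response differed between the substrains. In NHsd alone (3 arrays against 3), 28 of 46 genes were higher and 4 lower, beside 48.7% and 6.58% of all genes; in J, 22 were higher and 7 lower, beside 47.8% and 7.59%. With equal medians the counts were 12 and 15 in NHsd (background 20.3% and 28.8%) and 10 and 17 in J (20.9% and 29.2%). As deposited, 20 genes were higher in both substrains and 4 lower in both (Edem1, Edem2, Pdia2 and Xbp1), and 0 were called in opposite directions. In NHsd alone 8 were called higher (Derl1, Dnajc3, Edem3, Eif2ak3, Ern1, Hspa5, Hyou1 and Syvn1), and in J alone 2 were called higher (Derl2 and Sec63) and 3 lower (Ero1b, Herpud1 and Sel1l). Some of these splits differed on other probe sets above the filter. Derl2 changed by 1.07 in NHsd and 0.40 in J on its other probe set. Derl1 changed by 0.48 and 0.96, -0.10 and 0.44, and 1.17 and 0.93. Sec63 changed by 0.94 and 1.03, 0.69 and 0.62, -0.14 and 0.12, and 0.95 and 0.82. The other probe sets of Edem3, Herpud1, Hyou1 and Syvn1 differed in the same direction as those used. Of the genes lower in both substrains, Edem1 changed by 0.22 in NHsd and -0.46 in J on its other probe set. Once J cerulein replicate 1 was left out, Hspa5 (higher) and Txndc5 (lower, and not called in NHsd) were called in J, at 0.58 (SE 0.13, adjusted p = 0.00323) and -0.43 (adjusted p = 0.0159). Across the 46 genes the changes in NHsd and J, which share no arrays, had a Pearson r of 0.92, given as a description since genes are not independent, and 41 of 46 had the same sign as deposited and 34 with equal medians. The shares of all genes called in both substrains, called in 1 alone or changed with the same sign were not counted. Whether the set differs from all genes in this was therefore not tested.

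**Figure D4:**
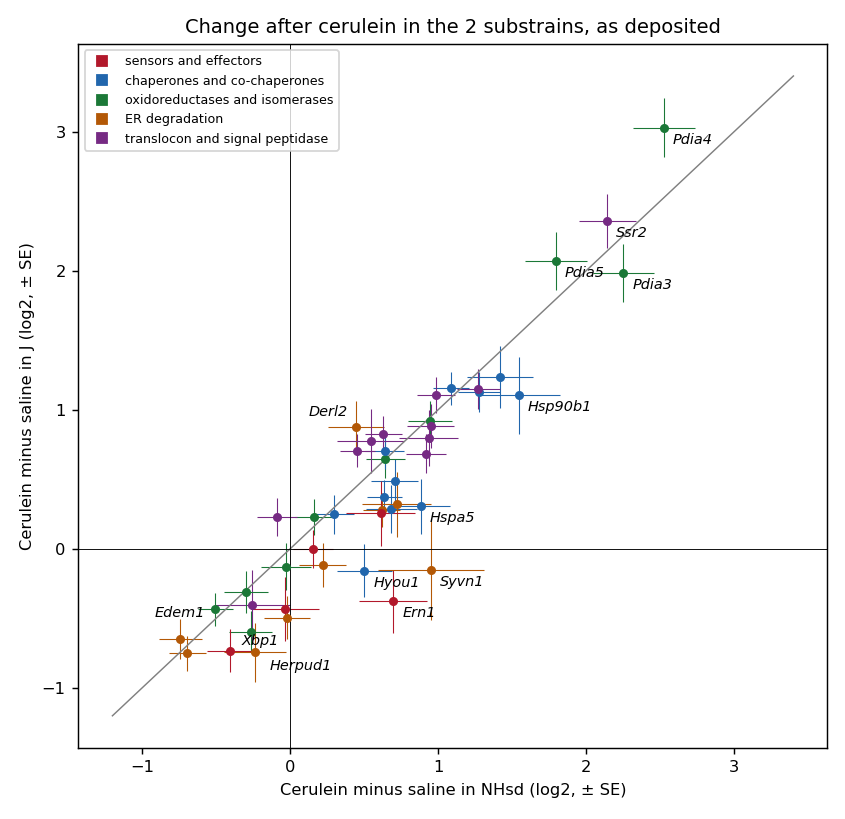
Log2 change after cerulein, as deposited, in NHsd (horizontal) and J (vertical) for the 46 genes, each with its standard error, coloured by role; the grey line marks equal changes. Pdia4, Ssr2, Pdia3 and Pdia5 lie at the top right in both substrains, and Ern1, Syvn1 and Hyou1 lie farthest below the line.

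The difference of the 2 responses (J minus NHsd) was itself tested, and limma called 0 of the 46 genes as deposited and 0 with equal medians, where 0.0118% of all genes were called as deposited and 0% with equal medians. An unadjusted p under 0.05 was seen for 3 genes as deposited and 2 with equal medians. The share of all genes under that threshold was not counted, here and in the comparisons below. The 3 were Ern1, Syvn1 and Hyou1, all with the smaller response in J. The difference was -1.07 (SE 0.32, 95% interval -1.77 to -0.37, adjusted p = 0.701) for Ern1, which changed by 0.70 in NHsd and -0.38 in J. Syvn1 changed by 0.95 in NHsd and -0.15 in J, a difference of -1.10 (SE 0.51, 95% interval -2.20 to -0.0032, adjusted p = 0.708), and Hyou1 by 0.50 and -0.16, a difference of -0.66 (SE 0.27, 95% interval -1.24 to -0.080, adjusted p = 0.701). All 3 were lowest among the cerulein arrays on J cerulein replicate 1, and without it the differences were -0.81 for Ern1 (adjusted p = 0.786), -0.57 for Syvn1 (adjusted p = 0.860) and -0.47 for Hyou1 (adjusted p = 0.860). The response of Hspa5 was 0.88 in NHsd and 0.31 in J, a difference of -0.58 (SE 0.28, 95% interval -1.18 to 0.030, adjusted p = 0.714), and -0.30 without that array. That of Pdia4 was 2.53 and 3.03, a difference of 0.50 (SE 0.30, 95% interval -0.15 to 1.15, adjusted p = 0.724), and that of Xbp1 -0.40 and -0.73, a difference of -0.33 (SE 0.22, 95% interval -0.81 to 0.15, adjusted p = 0.737). By role, the median change in NHsd and J was 0.15 and -0.38 for sensors, 0.71 and 0.49 for chaperones, 0.40 and 0.44 for oxidoreductases, 0.22 and -0.15 for degradation, and 0.92 and 0.80 for the translocon, as deposited. Without J cerulein replicate 1 the median of the sensors in J was -0.11. In simulated data with the spread of these arrays, the same test recovered 19.4% of genes whose responses differed 2-fold. It recovered 87.9% of those that differed 4-fold, so smaller differences were mostly not detectable with 3 mice in each group. More genes differed in the simulation than the 0.0118% called here, which makes the adjustment of p less strict there. Its noise was also drawn independently for each gene. The share recovered may therefore be lower in the data.

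Between J and NHsd mice given saline, 0 of 46 genes were called under either scaling (background 0.0589% as deposited and 0.0706% with equal medians), and 1 had an unadjusted p under 0.05 as deposited (0 with equal medians), Derl1, which was 0.28 higher in J (SE 0.12, 95% interval 0.0049 to 0.55, adjusted p = 0.765). The saline values of Derl1, 9.01, 9.06 and 9.04 in NHsd and 9.38, 9.49 and 9.07 in J, did not overlap. The same held for 5 higher and 3 lower of the 46 genes as deposited, Derl1 included, and the share of all genes was not counted. Between J and NHsd mice given cerulein, 0 were called under either scaling (background 0.224% and 0.259%), and 6 had an unadjusted p under 0.05 as deposited and 8 with equal medians. All 6 were lower in J: Ern1 by -0.76 (SE 0.23, adjusted p = 0.305), Herpud1 by -0.71 (SE 0.21, adjusted p = 0.305), Hyou1 by -0.50, Derl3 by -0.48, Sel1l by -0.36 and Ero1b by -0.34, as signed log2 differences. Without J cerulein replicate 1, Ern1 was at -0.50, Herpud1 at -0.58 and Derl3 at -0.55. Hyou1 at -0.32, Sel1l at -0.16 and Ero1b at -0.20 no longer had an unadjusted p under 0.05. Herpud1 read 9.86, 10.39 and 9.66 in NHsd cerulein and 8.99, 9.50 and 9.28 in J cerulein mice, and Derl3 8.74, 8.27 and 8.60 and 8.20, 7.97 and 8.01. Neither gene overlapped between the substrains, and neither passed the test over all genes. They were among 1 higher and 5 lower of the 46 genes without overlap as deposited, and the share of all genes was not counted. The summed plasma cell markers, given above, did not overlap between these groups either. Summed islet markers were 23055 to 28492 in NHsd cerulein and 31190 to 35812 in J cerulein mice, again without overlap. For acinar markers the range of J cerulein lay within that of NHsd cerulein mice. The part of these markers in the differences was not tested.

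To place the 46 genes, 160 other gene symbols of the ER and its traffic were taken from textbook lists (3 genes, Srpr, Selenos and Marchf6, stand there under an old and a new symbol and were counted once below), of which 152 had a probe set and 136 were tested. As deposited 77 were higher and 14 lower (median 0.46 log2), and with equal medians 38 and 55 (median -0.12), beside the shares of all genes given above. Of the oligosaccharyltransferase, which puts sugar chains on entering proteins, 9 of 12 were higher and 0 lower, with Rpn1 at 1.95 (SE 0.11, adjusted p = 2.59e-08), and with equal medians 5 and 3. Of the signal recognition particle and its receptor, which bring ribosomes to the ER, 3 of 7 were higher and 2 lower with Srp19 at 1.54 (SE 0.14, adjusted p = 9.65e-07) and the receptor subunit Srpr at -0.45 (SE 0.096, adjusted p = 0.00125), and with equal medians 1 and 4. Of other translocon and chaperone cofactors 11 of 20 were higher and 1 lower, among them Hspa13 at 1.91 (SE 0.18, adjusted p = 1.53e-06) and Sil1, another exchange factor of Hspa5, at -0.74 (SE 0.093, adjusted p = 1.95e-05), and with equal medians 4 and 8. Of glycoprotein quality control 4 of 8 were higher and 3 lower, from Erp29 at 1.09 (SE 0.12, adjusted p = 4.95e-06) to the mannosidase Man1a at -1.17 (SE 0.096, adjusted p = 5.84e-07), and with equal medians 2 and 4.

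Of other oxidoreductases and isomerases 12 of 19 were higher and 3 lower, with the disulfide isomerase of mucus cells Agr2 at 2.63 (SE 0.23, adjusted p = 1.06e-06) and the sulfhydryl oxidase Qsox1 at -1.61 (SE 0.12, adjusted p = 3.49e-07), and with equal medians 9 and 7. Of other degradation genes 10 of 22 were higher and 2 lower with the adaptors Ubxn4 at 0.92 (SE 0.13, adjusted p = 4.76e-05) and Ubxn6 at -0.90 (SE 0.19, adjusted p = 8.99e-04), and with equal medians 3 and 12. Of other stress sensors and transcription factors 8 of 18 were higher and 2 lower, with Nfe2l2 (Nrf2), a factor of the oxidative stress response, at 2.33 (SE 0.12, adjusted p = 2.14e-08), and with equal medians 3 and 9. In the Eif2ak3 branch, genes named here after their values were seen, Atf4 was at -0.31 (SE 0.13, adjusted p = 0.0409), Ddit3 (CHOP) at 1.09 (SE 0.10, adjusted p = 1.38e-06) and Atf3 at 1.03 (SE 0.21, adjusted p = 8.23e-04), and with equal medians they were at -0.89 (adjusted p = 1.63e-04), 0.51 (adjusted p = 0.00144) and 0.45 (adjusted p = 0.108). Ppp1r15b, the constant partner of the phosphatase that Ppp1r15a directs under stress, was at -0.36 (SE 0.091, adjusted p = 0.00366). Of ER to Golgi transport 20 of 30 were higher and 1 lower, from Tmed5 at 2.31 (SE 0.32, adjusted p = 4.36e-05) to Tmed6 at -0.67 (SE 0.082, adjusted p = 1.46e-05), and with equal medians 11 and 8.

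Outside the set, the 5 tested genes whose log2 values ran most like those of 3 members over the 12 arrays were listed, after equal medians, as a description. For Hspa5 they were Ik, Pde4dip, Cdh1, Taf4 and Nedd4l (r from 0.89 to 0.92). For Xbp1 they were Mcfd2, Abhd14b, Cela2a, Rnase1 and Parp16 (r of 0.99 each), of which Cela2a and Rnase1 encode an elastase and a ribonuclease that acinar cells secrete. For Derl3 they were Vtn, Rbm19, Sostdc1, Wars and Plpp5 (r from 0.93 to 0.95). The arrays of the 4 groups are what these genes share, so a common difference between groups raises every r.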

How the data were processed

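The authors deposited log2 values per probe set; the submitters' processing notes list GCRMA and Partek, with no version or order of steps. Per the labels' protocols, RNA was taken up in Trizol, cleaned with RNeasy and labelled as biotinylated cRNA. The table held 45101 probe sets between 2.39 and 16.4; 34958 carried 1 gene symbol in the platform annotation, 932 several and 9211 none. The probe set with the highest mean over the 12 arrays stood for a gene, and a gene was tested where it exceeded log2 4 on at least 3 arrays (8493 of 18194 genes). limma 3.58.1 in R 4.3.3 fitted 1 mean for each group to all 12 arrays (8 residual and a median of 4.37 prior degrees of freedom, intensity trend, two-sided). Adjusted p-values are Benjamini-Hochberg over all tested genes, and a call means one below 0.05. Log2 changes are cerulein minus saline or J minus NHsd, SE is limma's moderated standard error, and "equal medians" means that each array was shifted to a common median of tested genes. The members, roles and other lists were chosen with earlier results of these data known, so lists are described by counts and medians without a test. Genes were named by rule: every member, in full the 5 sensors, up to 3 called genes in each direction and role, and those that changed direction with equal medians, and of each other list the called gene with the largest rise and fall. In simulated data of 8493 genes the fit recovered 49.3% of 1.5-fold, 85.1% of 2-fold and 100% of 4-fold changes for the mean of both substrains, and 59.7% of 2-fold changes within 1 substrain. Only 67, 67 and 66 genes were changed there by 1.5, 2 and 4-fold. In the data 59.4% of genes were called higher and 10% lower over both substrains, which makes the adjustment of p less strict. These shares are therefore not the sensitivity of the cerulein comparisons. Alternatives were equal medians, quantile normalization, no filter, a stricter filter (log2 6), no trend, robust moderation, averaging the probe sets of each gene, fitting the compared groups alone, a replicate block, a fold threshold of 2, and dropping each array. Equal medians without J cerulein replicate 1 was added after the data were seen. Precision is limited by the 3 arrays of each group, and each array is a mouse per the labels. Tables and figures were made with Python 3.11.15, pandas 2.3.3 and matplotlib 3.10.9. Scanner files were not used here, and no protein table was used.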

Additional observations from a re-analysis of the deposited data

How the results depend on the processing

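With equal array medians the called genes were 13 higher and 18 lower over both substrains, 12 higher and 15 lower in NHsd and 10 higher and 17 lower in J, with quantile normalization 17 higher and 13 lower over both substrains, 16 higher and 10 lower in NHsd and 14 higher and 14 lower in J, and with equal array medians and without J cerulein replicate 1 14 higher and 18 lower over both substrains, 15 higher and 15 lower in NHsd and 14 higher and 17 lower in J. Changes of at least 2-fold among the called genes numbered 10 higher and 0 lower over both substrains, 9 higher and 0 lower in NHsd and 10 higher and 0 lower in J. In the order sensors, chaperones, oxidoreductases, degradation and translocon, the median changes with equal array medians were -0.50, 0.016, -0.16, -0.53 and 0.22 over both substrains, -0.43, 0.12, -0.18, -0.36 and 0.33 in NHsd and -0.95, -0.089, -0.14, -0.73 and 0.22 in J, and with quantile normalization -0.47, 0.21, 0.12, -0.43 and 0.40, -0.40, 0.25, 0.12, -0.23 and 0.46 and -0.92, 0.13, 0.12, -0.63 and 0.44. Single genes that turned sign in the mean of both substrains with equal array medians were Ern1 -0.42, Eif2ak3 -0.15, Ppp1r15a -0.50, Hyou1 -0.41, Dnajb9 -0.074, Dnajb11 -0.31, Dnajc3 -0.094, Ppib -0.39, Syvn1 -0.18, Edem3 -0.061, Derl1 -0.13, Derl3 -0.53, Sec61b -0.0012 and Ssr4 -0.51, and with quantile normalization Ern1 -0.40, Eif2ak3 -0.0078, Ppp1r15a -0.47, Hyou1 -0.31, Dnajb11 -0.20, Syvn1 -0.068, Derl3 -0.43 and Ssr4 -0.099. Without J cerulein replicate 1, P4hb turned to 0.029. With probe sets of each gene averaged, Txndc5 turned to 0.44 and was called higher (limma, adjusted p = 4.02e-04). The medians moved to -0.071 for sensors in the mean of both substrains, 0.75 for the translocon in NHsd and 0.70 for chaperones in J. Dropping the filter, raising it to log2 6, robust moderation, fitting without the trend and fitting the compared groups alone kept every count of called genes within 1.5 times. With each array left out in turn, 26 to 31 genes were higher and 7 to 8 lower for the mean, 23 to 30 and 3 to 5 in NHsd, and 20 to 23 and 6 to 8 in J. The medians in J ran from -0.50 to -0.11 for sensors (highest without J cerulein replicate 1), 0.40 to 0.47 for oxidoreductases, 0.39 to 0.62 for chaperones (highest without J cerulein replicate 1), -0.53 to -0.13 for degradation (lowest without J cerulein replicate 3) and 0.74 to 0.99 for the translocon (highest without J cerulein replicate 1). In the comparisons between substrains, 0 genes were called by limma under all of these settings (as deposited 3 for the difference of the responses, 1 in saline and 6 in cerulein mice had an unadjusted p under 0.05). The replicate numbers did not pair the samples, with correlations of same-numbered arrays' deviations from -0.16 to 0.34. The fit with the replicate block called 28 genes higher and 8 lower, adding Sel1l (adjusted p = 0.0489), 28 and 4 in NHsd, and 22 and 7 in J. Whether the shift between treatments belongs to the RNA or to the arrays was not tested.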
